A study of Drosophila melanogaster with 18 samples.

Results

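Variants in 9 genes of lipid and hormone metabolism and of membrane transport were compared between lists called from the RNA of Drosophila melanogaster embryos. The genes were Lpin, Aldh-III and jhamt, which encode enzymes, and Oatp30B, sut1, E23, CG17646, CG9663 and Piezo, which encode transporters or a channel. They were chosen by their symbols from 129 genes in the authors' deposited lists, after earlier results of these lists were known. Being listed, and with it the count of genes, the line and the kind of change, is therefore a description and not a finding. After repeated entries were merged, the 9 genes held 11 of 173 variants, where a variant is 1 position with 1 pair of alleles in 1 line. The files hold no expression values, so the grouping by function rests on what is known of the genes and could not be checked against the data.

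The series is a forward screen for regulators of muscle morphogenesis, with 18 samples of polyadenylated RNA from 6 lines. The lists used came from 3 of the lines, namely sj266 with 38 variants from 2 samples, sj440 with 68 from 3 and sj461 with 67 from 3; in sj440 and sj461, 2 of the 3 samples carry the same replicate number and differ only in a run number. All embryos were at stage 12 and were homozygous, selected by hand against a green balancer chromosome. The labels name no mutagen, no parental stock and no control line, and each line has 1 list over its samples. No value below has a replicate error, depth is unknown, and no test between lines was made.

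Lipin enzymes convert phosphatidate to diacylglycerol, a branch point between phospholipids and stored fat, and in the fly Lpin is needed for a normal fat body. Juvenile hormone and ecdysone are the lipid-derived hormones that time insect development. ATP-binding cassette (ABC) transporters of subfamily G move lipids and other molecules across membranes, and the pigment transporter white is the best known fly member. Piezo proteins are cation channels opened by stretch of the membrane.

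The insertion in E23 is shown with the sequence that was gained, since most other variants of these genes change 1 base. It is written on the forward strand of build BDGP6 as deposited, with the added bases in capitals.

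E23 in sj440, alternative (reference cg): cgACGACG

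The E23 insertion added 6 bases at 2L, position 3352610, and an insertion in Piezo in sj266 added 9 bases at 2L, position 8175357. Both keep the reading frame. In E23, whose gene runs on the reverse strand, 1 threonine codon at residue 261 becomes a threonine followed by 2 serines. Since the bases repeat, the same E23 allele can be written at 3 places within the listed bases. The Piezo insertion was annotated at residues 410 to 412. The lists held 24 insertions of the in-frame class, for which a length that is a multiple of 3 is given by the class. Their lengths ran from 3 to 12 bases with a median of 6. The Piezo insertion was the only one of 9 bases, and 9 insertions had 6.

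Among the genes of lipid metabolism, Lpin stood in 2 lists and with different kinds of change. Over the lists, 14 of 129 genes stood in more than 1 line. Of the 9 genes described here 1 did, namely Lpin, a share of the 9 near that over the lists. Lpin (FBgn0263593) spans positions 8136986 to 8156654 of arm 2R in the RefSeq table and runs on the reverse strand. A splice donor variant at position 8141889 was listed in both sj266 and sj440, with T changed to C on the gene's strand. Introns mostly begin with GT, and a T that is changed to C leaves GC, which is the best known of the rarer donor sequences. The caller's quality score, which has no stated scale, was 65 in sj266, where 16 of 38 variants scored higher, and 104 in sj440, where 18 of 68 did. The score was thus 39 higher, or 1.6 times as high, in sj440. The scale may differ between lists, so scores of different lists may not be comparable, here or below. Of 6 identical variants that sj266 and sj440 share, 4 scored higher in sj440, 1 scored lower and 1 was equal. Read depth and the share of reads with the variant are unknown in both lists, so a difference in score cannot be read as a difference in allele share.

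The other Lpin variant, K755N at position 8139721, was listed in sj440 only. It had a score of 228, the highest of that list, shared with 4 other variants. An A at the third position of the codon was changed to T on the gene's strand (aaA to aaT), which replaces a lysine with an asparagine and so removes a positive charge. It was the only change from lysine to asparagine among 95 missense changes. In BLOSUM62, a matrix that scores how often residues replace each other in related proteins, it scores 0, equal to the median of the 95. The 2 Lpin variants of sj440 lie 2168 bases apart, 14.8 and 16.9 kb from the gene's annotated start in a gene of 19.7 kb. Both lie outside kermit, a gene that the RefSeq table places at positions 8146918 to 8156654 within the same interval. They were annotated on 1 transcript (FBtr0088815), while RefSeq holds 11 for the gene, and whether the donor is used in the others was not tested. Lpin was the only one of the 9 genes with more than 1 variant in a line. In sj440 it was 1 of 5 of these genes, against 11 of all 55 genes listed there. Over the 3 lists there were 24 such cases, with 3 among the 35 genes of sj266 and 10 among the 53 of sj461.

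Aldh-III (FBgn0010548), an aldehyde dehydrogenase whose relatives in mammals oxidise fatty aldehydes, had a splice acceptor variant in sj440 at 2R, position 7473347. On the gene's strand, a G was changed to T, which is the last base of an acceptor that ends in AG. Its score of 139 was the highest of 20 splice-site variants in this line, whose median was 53.5. In the whole list 13 of 68 variants scored higher. The place is 3.82 kb from the annotated start of a gene of 10.3 kb with 12 RefSeq transcripts.

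The hormone gene jhamt (FBgn0028841) encodes the methyltransferase that makes juvenile hormone from its acid precursor in the corpora allata. Its splice donor variant in sj440, at 2L, position 16366571, changed G to A. The score of 78 ranked 23 of 68 in the list and 6 of 20 among splice-site variants. At 1.14 kb it is the shortest of the 9 genes, and the variant lies 668 bases from its start. RefSeq holds 2 transcripts of it.

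Of the transporters, Oatp30B (FBgn0032123) had the variant with the highest rank within its own list, 2 of 38. It belongs to the organic anion transporting polypeptides, which carry large amphipathic molecules into cells. The missense change E881K in sj266, at 2L, position 9537639, scored 215, and only bark scored higher in that list, with 220. The next score below was 213, in Spt5. A G at the first position of the codon became A (Gag to Aag), and a negative charge was replaced with a positive one. The BLOSUM62 score is 1. The change from glutamate to lysine was listed 2 times among the 95 missense changes. It lies 16.4 kb along a gene of 18.9 kb.

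The predicted sugar transporter gene sut1 (FBgn0028563) had a splice acceptor variant in sj440 at 2R, position 8085980, with A changed to T. Its score of 50 was just under the median of the line, 52, and 35 of 68 variants scored higher. RefSeq holds 1 transcript of sut1. The sugar transporter genes sut2 and sut3 follow it on the same arm, and neither was listed.

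E23, CG17646 and CG9663 belong to subfamily G of the ABC transporters. E23 (FBgn0020445) is induced by ecdysone, and its product dampens the response to that hormone. The insertion in sj440, shown above, scored 144 and stood in 3 entries with the same position and alleles, which were merged. It lies 2.22 kb from the annotated start of a gene of 20 kb, nearer to the start, as a share of the gene, than the variants of the other 8 genes. CG17646 (FBgn0264494) had a splice acceptor variant in sj461 at 2L, position 1748773, with G changed to T. Its score of 77 was above the line's median of 63, and 23 of 67 variants scored higher. CG9663 (FBgn0031516) had an acceptor variant in the same line at 2L, position 3296487, with A changed to T on the gene's strand. It scored 27.4, and 57 of 67 variants scored higher. Both acceptor variants lie far along their genes, 16.2 of 18.1 kb in CG17646 and 6.64 of 8.21 kb in CG9663. The variants of Oatp30B, Lpin and sut1 do too, at 72.0% to 87.2% of genomic length. Those of E23, Aldh-III, Piezo and jhamt lie at 11.1% to 58.8%.

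Piezo (FBgn0264953), known in the fly for the sensing of noxious touch by larval neurons, had the in-frame insertion in sj266. Its score of 21.2 was the lowest of the 3 lists. The median of the 10 in-frame insertions and deletions of sj266 was 97. In sj440, by comparison, the E23 insertion ranked 4 of 9 in this class, whose median was 131. RefSeq holds 11 transcripts of Piezo, and the gene is the longest of the 9, at 27.1 kb.

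**Figure D1:**
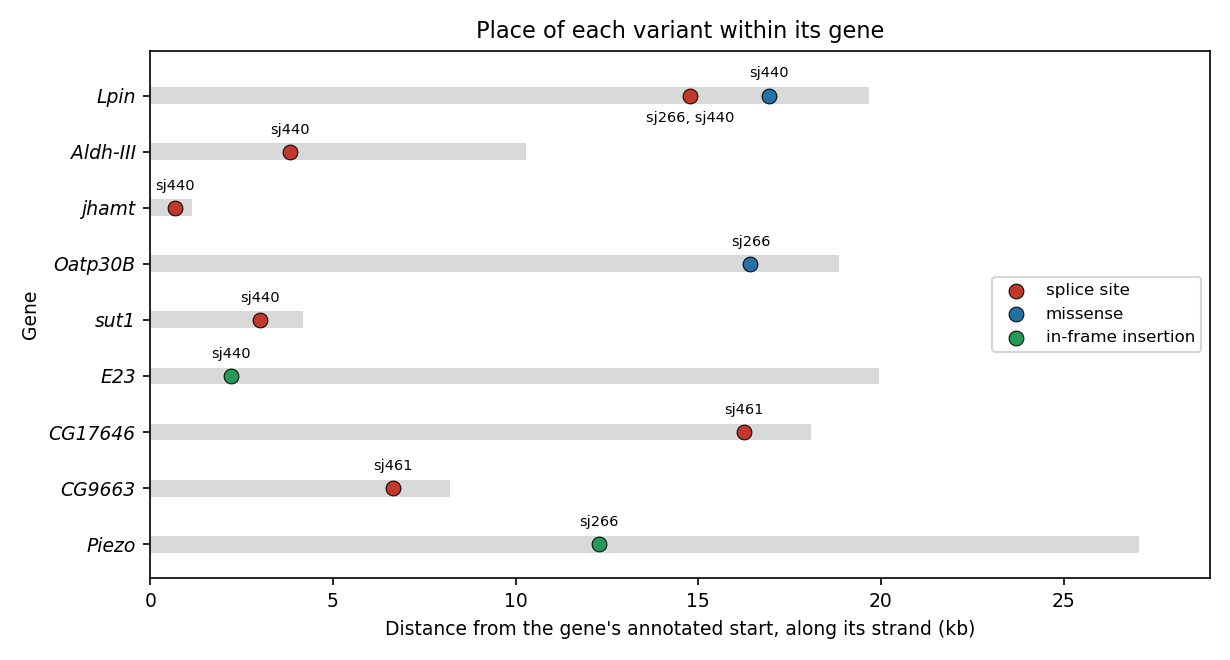
Each grey bar is 1 of the 9 genes, drawn to its length in the RefSeq gene table, and the x axis gives the distance from the gene's annotated start along its strand in kb. Points are variants, coloured by kind and labelled with the line; the splice donor variant of Lpin stands in sj266 and sj440, and the E23 insertion lies 2.22 kb from the start of its gene.

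Set side by side, the scores of these variants ran from 21.2 to 228, the whole range of the lists. Of the 11 variants, 8 scored above the median of their own line, against 83 of all 173. At a quality of 50 or more the count was 4 of 9, with each median taken anew from the variants kept. As many of all kept variants then lie above the median of their line as below it, apart from ties. As the genes were chosen with these values known, no test was made of it. In sj266, Oatp30B scored 215 and Lpin 65, above the median of 56, and Piezo lay below it. The median of sj266 becomes 65 without A to G changes or with every entry counted. It becomes 69 at a quality of 30 or more and 88 at 50 or more. Lpin does not lie above any of these. In sj440, Lpin (228 and 104), E23 (144), Aldh-III (139) and jhamt (78) lay above the median of 52, and sut1 lay 2 below it. In sj461, CG17646 lay above the median of 63 and CG9663 below. The ABC transporter variants scored 144 in sj440 (E23) and 77 and 27.4 in sj461 (CG17646 and CG9663). They come from different lists and are of different kinds, so nothing about the family can be read from their scores.

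**Figure D2:**
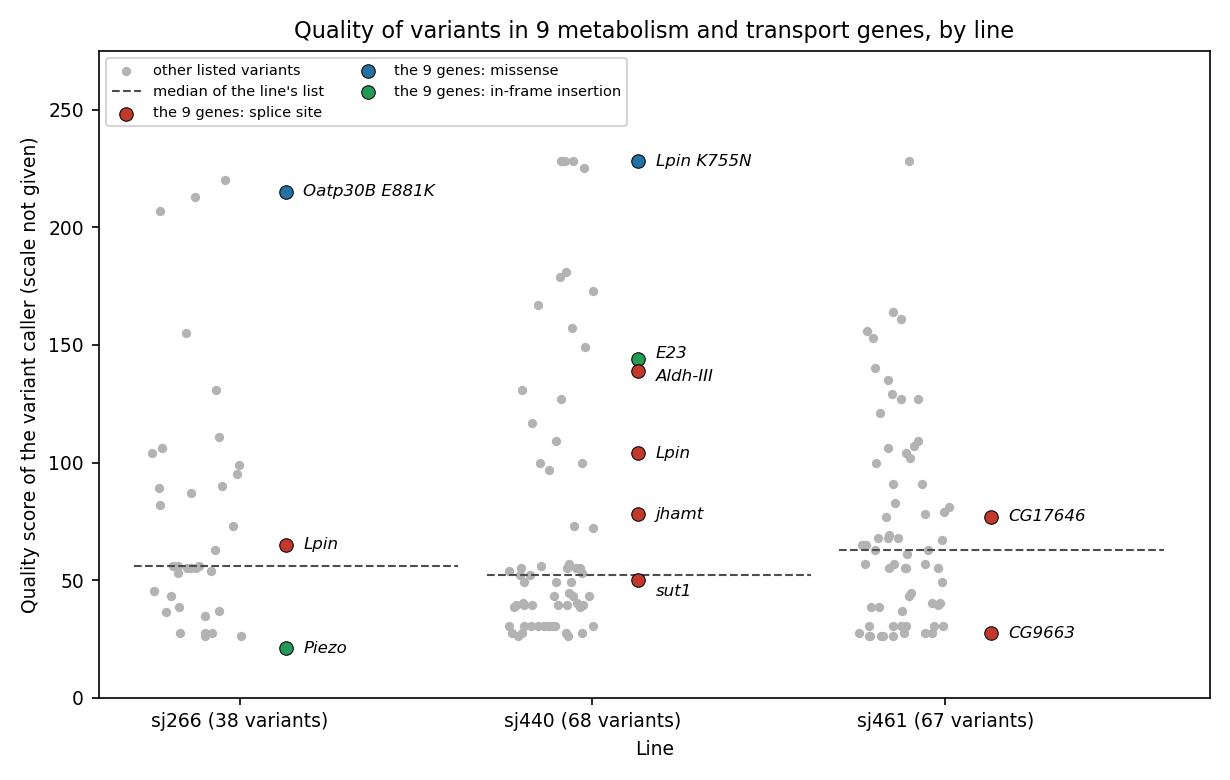
The y axis is the caller's quality score on its own, unstated scale, and the x axis the line. Grey points are all other listed variants with random sideways spread, and dashed lines are the median of each list (56, 52 and 63). Coloured points are the variants of the 9 genes by kind. Of these, 8 of the 11 lie above their line's median, against 83 of all 173 listed. At a quality of 50 or more, with medians taken anew, 4 of 9 do. K755N of Lpin and E881K of Oatp30B lie highest among the coloured points.

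By kind of change, 7 of the 11 variants were at splice sites, 2 were missense and 2 were in-frame insertions. Over the lists, splice sites made up 47 of 173 variants, missense changes 95, in-frame insertions or deletions 28 and stop or start changes 3. The genes with a splice-site variant were Lpin, Aldh-III, jhamt, sut1, CG17646 and CG9663. The splice-site variants of the 9 genes were 3 donor and 4 acceptor changes, against 25 and 22 over the lists. At acceptors they were A to T in sut1 and CG9663 and G to T in Aldh-III and CG17646, types that make up 6 each of the 22 listed acceptor changes. The most frequent acceptor change of the lists, G to A with 8 of 22, was in none of the 9 genes. At donors, T to C was listed 5 times, of which Lpin gives 2. These are 1 identical change listed in both sj266 and sj440. It therefore counts 2 times in the 7 splice-site variants and in the 3 donor changes. Splice-site bases lie in introns, which mature mRNA lacks. Which reads carried these calls is unknown, and no effect on splicing was measured.

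**Figure D3:**
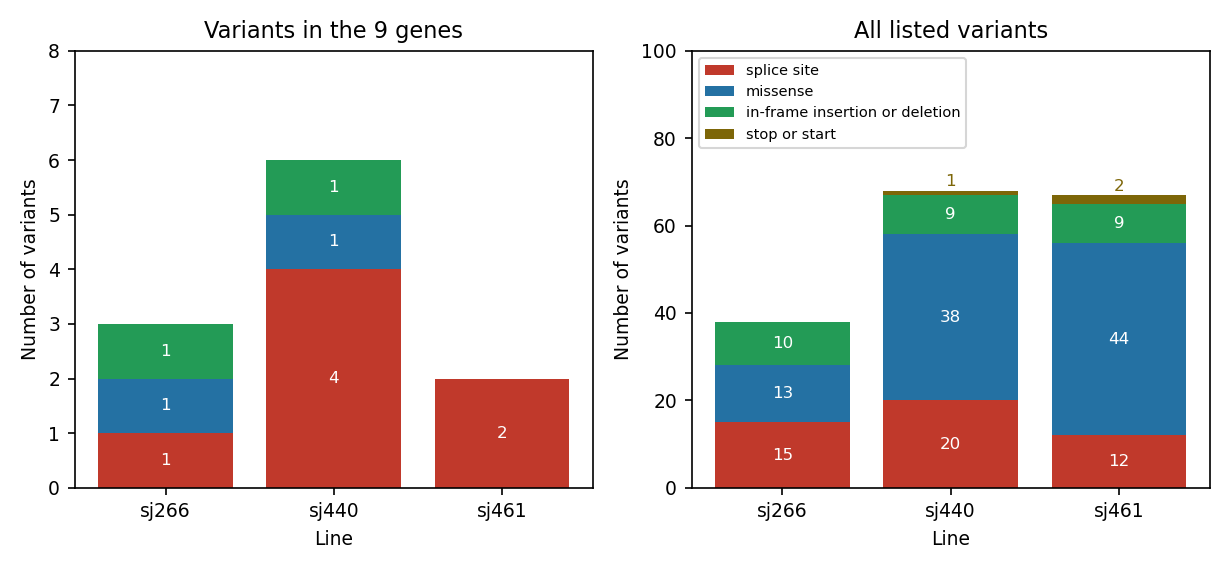
Stacked bars count variants by kind for each line, for the 9 genes (left, up to 6 variants) and for all listed variants (right, up to 68), on separate y axes that start at 0. Splice-site variants are 1, 4 and 2 of the 9 genes' variants in sj266, sj440 and sj461, and 15, 20 and 12 of all listed ones.

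Of the 9 single-base changes, 2 were of G:C to A:T pairs, in Oatp30B and jhamt, against 43 of 145 over the lists. Changes of A:T to T:A were 3, in K755N of Lpin, sut1 and CG9663, against 28 of 145. None of the 9 was a change of A to G on the gene's strand, the form in which RNA editing by adenosine deamination appears, against 10 of 145.

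Some of the variants lay near each other along the chromosome. In sj440 the variants of Aldh-III, sut1 and Lpin lie within 669 kb of arm 2R, and the list holds no other variant of that line between them. These are 4 of its 35 variants on the arm. The sut1 and K755N positions are 53.7 kb apart, with 15 protein-coding genes between sut1 and Lpin in the RefSeq table. On arm 2L, CG9663 of sj461 and E23 of sj440 are 56.1 kb apart, with 8 protein-coding genes between them, and CG9664, another ABC transporter gene of subfamily G, adjoins CG9663. Variants of 1 line that lie close together may have been inherited together, which was not tested. Each of the 10 different changes was found in 1 line except the Lpin donor variant, and 6 of 167 changes over the lists stood in 2 lines.

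Other genes of the same pathways and families were looked up in the lists, and 0 of 38 that lie on chromosome 2, the only chromosome in the lists, were found. The lists name 129 genes, which is 2.34% of the 5508 protein-coding genes of that chromosome, so a count of 0 is near the background. It was also set in part by the choice of genes, since the 9 were taken from the listed ones and the lookup lists were made with the results known. The 38 held 7 genes of phosphatidate and glycerolipid metabolism, among them mdy, which makes triglyceride from diacylglycerol, and the phosphatidate-producing enzyme gene Agpat2. They held 8 of juvenile hormone, among them Kr-h1, a target of the hormone, and the epoxide hydrolases Jheh1, Jheh2 and Jheh3. The rest were 2 other aldehyde dehydrogenases, 7 other ABC transporters of subfamily G, 6 other organic anion transporting polypeptides, 5 other sugar transporters and 3 other mechanosensitive channels. The channel gene ppk12, a relative of ppk, is listed but was not among the genes looked up. A gene can be missing from a list because it is not expressed at this stage or not covered, so being unlisted does not show that it is unchanged.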

How the data were processed

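Egg laying took 3 h at 25 °C and ageing 7 h, per the labels' protocols. The submitters' processing notes name cutadapt 2.4, STAR 2.5.4b and build BDGP6 without roles. The sources used here do not name the caller, its filters or the annotation tool. For each line, the authors' list holds a quality score per variant on an unstated scale, as deposited. Lists were assigned by worksheet name and the workbook named in the samples' description. All 173 variants had passed the authors' filter and had a high or moderate impact.

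The 202 entries were merged by line, position and alleles. Ranks and medians were taken within a line. Bases were turned to the gene's strand for reverse-strand genes. All 9 genes matched the RefSeq gene table (Release 6 plus ISO1 MT), and all 11 variants lay inside their gene. The listed codons of the 95 missense changes translated to the listed residues. Members and gene lists were chosen with earlier results of these data known. All 9 genes are described; other listed genes are named only as pathway members or as neighbours in score or position. Merging and counting were tested on simulated data. No statistical test was run. Lists of the other 3 lines were not analysed here. The inserted sequence of Piezo is not reported here. Python 3.11.15, pandas 2.3.3, numpy 2.4.6, matplotlib 3.10.9 and Biopython 1.88 were used.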

Additional observations from a re-analysis of the deposited data

How the results depend on the processing

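Under 7 alternatives, 29 of 34 recomputed counts stayed within 1.5 times the reported one. At a quality of 50 or more, 4 of 9 variants of these genes lay above the median of their line, since the medians rise to 88, 106.5 and 80; the variants left out are those of Piezo and CG9663. Without splice-site variants, 4 variants remained (Oatp30B, Piezo, E23 and K755N of Lpin), 3 of them above the median, with 1 change of G:C to A:T, and 0 genes stood in more than 1 line, since Lpin is listed in sj266 only for its donor variant. Removing A to G changes, or variants within 100 bp of another, left all 11. Of them, 7 and 8, in that order, lay above the median of their line. At a quality of 30 or more, 7 of 9 did. Each median was taken anew from the variants kept. As many of all kept variants therefore lie above it as below, apart from ties. No paired analysis was possible because each line has 1 list over its samples and no values per replicate, and leaving out a replicate was not possible for the same reason. Depth behind each score is unknown.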

Other observations

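Other listed genes have known or predicted roles in transport across membranes, and 5 of them were chosen after their values were seen. Nhe2, a sodium and proton exchanger, had a splice donor variant in sj440 (2L, position 21121048) with a score of 40.4, and ppk12, of the degenerin family of sodium channels, had T9P in the same line (2R, 22427503) with 39.4. In sj461, the monocarboxylate transporter gene Sln had R635Q (2R, 11850927) with 30.4, and OtopLb, of the otopetrin family of proton channels, had Y142F (2L, 3277545) with 63, equal to the line's median. In the same line bib, a neurogenic gene of the aquaporin family, had an in-frame insertion with 129. The OtopLb variant lies 18.9 kb from that of CG9663 and is the nearest listed variant of that line.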
